A study of Mus musculus with 18 samples.

Results

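Spp1 encodes osteopontin, a secreted acidic phosphoprotein of the extracellular matrix. It was selected by its measured values: its transcript was higher with the small interfering RNA against Chst7 (siChst7) than with the control (siControl) on all 3 days sampled, so those differences are given below as a description, with no test. It is 1 of 24514 genes in the deposited count table and 1 of the 13802 genes that passed the filter on low counts. The cells were the iMGT-Myh6-eGFP-MEF line, mouse embryonic fibroblasts with a Myh6-eGFP reporter in which doxycycline induces the cardiac transcription factors Mef2c, Gata4 and Tbx5, which convert fibroblasts towards induced cardiomyocytes. Cells were plated in reprogramming medium at 1000 per well and transfected with either siRNA before induction. The 6 groups had 3 biological replicates each, every one a pool of 40 wells: siChst7 and siControl at day 0, with no doxycycline, and siChst7 and siControl at days 1 and 3 of 1 µg/mL doxycycline. All groups carried the same inducible transgenes and all were transfected, so no library represents untransfected cells, and day, doxycycline and time since transfection change together. Whether the line is 1 clone, and whether replicates were separate transfections, is not given in the sources used here.

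Osteopontin binds integrins through an Arg-Gly-Asp (RGD) motif and also binds CD44, and cells use it for adhesion, migration and survival signals. In bone it binds mineral and restrains crystal growth. In heart and other injured tissues it is known as a product of macrophages and of activated fibroblasts. It is heavily phosphorylated, and proteases that cut beside the RGD motif change which integrins it can bind.

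Spp1 lies on mouse chromosome 5, plus strand, at chr5:104435111-104441053 in RefSeq on GRCm38, the assembly also called mm10. The count table sums all isoforms of the gene. The stretch of exon 6 of 7 that encodes the RGD motif is shown because some integrins among the receptors described below recognise it. It is the coding sequence of a GENCODE transcript of the gene, chr5:104439451-104439519, with the 3 RGD codons in capitals. The first of them is codon 144 of 294.
Spp1 RGD codons: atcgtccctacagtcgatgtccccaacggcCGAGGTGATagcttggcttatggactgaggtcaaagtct
The 250 bases before the RefSeq start site, chr5:104434861-104435110 on GRCm38.p6, are shown because genes for factors reported to act on this promoter are described below. Capitals mark exact matches to the motifs searched.
Spp1 promoter: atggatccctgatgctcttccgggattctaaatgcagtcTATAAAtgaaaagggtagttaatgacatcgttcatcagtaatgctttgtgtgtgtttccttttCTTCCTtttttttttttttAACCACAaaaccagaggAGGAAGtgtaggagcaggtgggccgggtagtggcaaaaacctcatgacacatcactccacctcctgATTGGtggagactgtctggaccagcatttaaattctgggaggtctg

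A set of 7 motifs was searched on both strands of that window and of the same window of 32851 RefSeq promoters. The RUNX site AACCACA occurred once, starting 129 bases before the start site, and 4.4% of all promoters hold at least 1. The ETS site AGGAAG occurred at 2 places, at 148 bases on the minus strand and at 112 bases on the plus strand, and 29.5% of all promoters hold it. A CCAAT box lay on the minus strand at 46 bases (33.8% of promoters) and TATAAA at 211 bases (12.4%). The E-box CACGTG (6.02% of promoters), the AP-1 site TGANTCA (6.75%) and the T-box half-site AGGTGT (11.8%) had no match in this window. No 2 of the matches overlapped. These are matches of letters and say nothing of binding.

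The libraries held between 30590742 and 50021142 counts. Chst7, which encodes a carbohydrate 6-O-sulfotransferase and is the siRNA's target, was at 0.238 to 0.611 CPM in siChst7 cells at day 0, against 18.6 to 19.7 CPM in siControl cells. It was at 0.581 to 0.949 CPM with siChst7 at day 1, against 35.3 to 40.4 CPM with siControl, and at 1.64 to 2.96 CPM with siChst7 at day 3, against 23.8 to 25.9 CPM with siControl. The target was therefore lower in every siChst7 library than in every siControl library of its day. CPM, the unit of level used here, scales each count to the library total after edgeR's TMM scaling; TPM also divides by the gene length in the deposited table and is used where genes are compared with one another. The siChst7 libraries of day 3 differed more from one another than other replicates did: the chi-square per degree of freedom between pairs was 22.6 to 59.2 there, 3.70 to 15.6 in siChst7 at day 0 and 2.96 to 5.48 in the other groups. Replicate 2 of siChst7 at day 3 was the furthest from the others, at 59.2 with replicate 1 and 51.4 with replicate 3. Replicates 1 and 3 were at 22.6. Replicate 1 of siChst7 at day 3 had 1.96% of its counts on the ribosomal RNA locus Rn45s. The other siChst7 libraries of that day had 0.605% and 0.654%, and the siControl libraries 0.399% to 0.542%. Rn45s was called higher with siChst7 at day 3 by edgeR (log2 fold change 1.28), with no overlap between the groups.

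The labelled cell type was checked against marker lists. Of 10 fibroblast markers 8 passed the filter. The fibroblast markers summed to 9713.7 to 10559.8 CPM with siChst7 at day 0, against 10288.7 to 10610.5 CPM with siControl, with overlap. At day 1 the sums were lower without overlap, at 12946 to 13237.1 CPM with siChst7, against 14553.1 to 15078.5 CPM with siControl. The same held at day 3, at 11995.4 to 12699.3 CPM with siChst7, against 13737.1 to 14453.9 CPM with siControl. Vim, an intermediate filament, averaged 4083 TPM in siChst7 and 5036 TPM in siControl at day 0, and Col1a1, a fibrillar collagen chain, averaged 788 TPM in siChst7 and 715 TPM in siControl. Averaged over all 18 libraries, Col3a1, another fibrillar collagen chain, was at 18.7 TPM and the receptor Pdgfra at 20.8 TPM. The proteoglycan gene Lum had 48 counts and the surface marker gene Thy1 75 over the 18 libraries, and neither passed the filter. At an adjusted p below 0.05 by edgeR, 3 fibroblast markers were higher and 1 lower with siChst7 at day 0. At day 1 again 3 fibroblast markers were higher and 1 lower, and at day 3, 2 were higher and 4 lower. The single fibroblast markers thus did not share one direction. The cardiomyocyte gene Tnnt2 averaged 41.1, 208 and 1484 TPM in siChst7 at days 0, 1 and 3, and 18.2, 164 and 1442 TPM in siControl. The 8 cardiomyocyte markers summed to 991 to 1251 CPM with siChst7 at day 3, against 823 to 884 CPM with siControl. At an adjusted p below 0.05 by edgeR, 1 cardiomyocyte marker was higher and 1 lower with siChst7 at day 0. The lower count fell to 0 with a replicate block and with the compared libraries alone. It also fell to 0 without any 1 of the 3 siChst7 libraries of day 0, or without siControl replicate 1 or 2. At day 1, 1 of the 8 cardiomyocyte markers was higher, and at day 3, 5 were higher. Of all tested genes, 27.4%, 17.6% and 44.7% passed this threshold on those days.

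Spp1 was one of the more abundant transcripts before induction and one of moderate level after it, and at each day it was higher with siChst7. Its values at day 0 were 1360, 1336 and 1183 CPM in siChst7 libraries, against 576, 580 and 583 CPM in the siControl libraries. The groups did not overlap, and the siControl libraries lay close together, between 576 and 583 CPM. At day 1 the siChst7 libraries held 141, 140 and 131 CPM of Spp1, against 56.3, 47.7 and 52.2 CPM in siControl. Again every siChst7 library lay above every siControl library. At day 3 it had 113, 64.3 and 112 CPM with siChst7, against 29.3, 25.9 and 27.5 CPM with siControl. Replicate 2 of siChst7 stood apart from the other siChst7 libraries at day 3 and still lay above all siControl libraries.

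**Figure D1:**
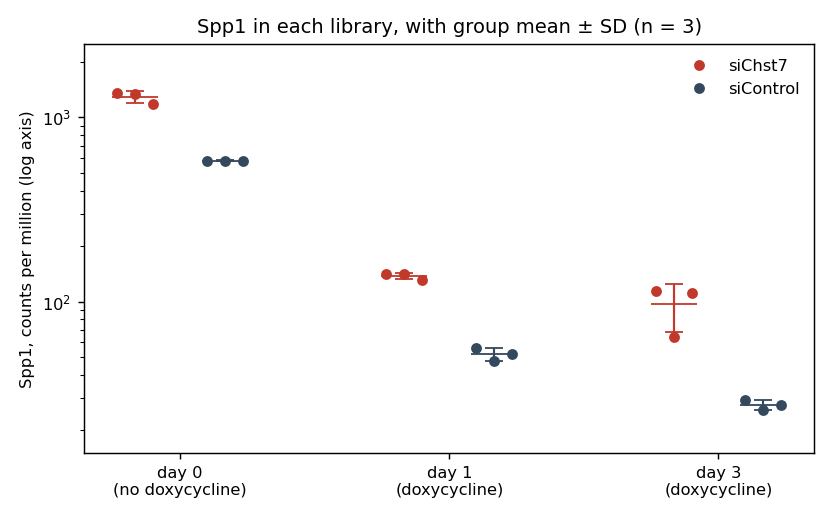
Spp1 in CPM (log axis) in each of the 18 libraries, by day, with siChst7 left of siControl at each day; points are libraries and bars are the group mean ± SD (n = 3). The siChst7 means were 1293, 138 and 96.6 CPM and the siControl means 580, 52.1 and 27.6 CPM at days 0, 1 and 3, with no overlap between siRNAs within a day.

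Ordered by mean, the groups ran from siChst7 at day 0 (1293 ± 95.8 CPM, SD, n = 3) through siControl at day 0 (580 ± 3.52 CPM), siChst7 at day 1 (138 ± 5.36 CPM), siChst7 at day 3 (96.6 ± 28.0 CPM) and siControl at day 1 (52.1 ± 4.27 CPM) to siControl at day 3 (27.6 ± 1.70 CPM). No 2 neighbours in this order overlapped. The closest were siChst7 at day 3, whose lowest library had 64.3 CPM, and siControl at day 1, whose highest had 56.3 CPM. The level with siChst7 at day 3 thus stayed above that of siControl cells at day 1. The highest group mean was 46.9 times the lowest.

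Per length, Spp1 averaged 1927 ± 92.7 TPM in siChst7 and 826 ± 3.55 TPM in siControl at day 0. Its rank among all genes in TPM was 41 to 44 in siChst7 libraries and 169 to 171 in siControl libraries of that day. At day 1 it averaged 195 ± 7.93 TPM in siChst7 (rank 931 to 1030) and 74.6 ± 6.48 TPM in siControl (rank 2655 to 3115). At day 3 it averaged 131 ± 29.5 TPM in siChst7 (rank 1229 to 2151) and 44.2 ± 2.66 TPM in siControl (rank 4389 to 4819). The smallest library count was 1039.

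The log2 fold change of Spp1 for siChst7 over siControl, from edgeR's quasi-likelihood fit of all 18 libraries, was 1.16 ± 0.12 (SE) at day 0, 1.40 ± 0.13 at day 1 and 1.81 ± 0.14 at day 3. These are 2.23-fold, 2.64-fold and 3.49-fold. The fit uses 1 estimate of the spread of Spp1 for all 6 groups, so these SEs are alike. With the compared libraries alone the SE was 0.05 at day 0, 0.04 at day 1 and 0.19 at day 3. Over single libraries, the ratio of any siChst7 library to any siControl library was 2.03 to 2.36 at day 0, 2.34 to 2.95 at day 1 and 2.19 to 4.37 at day 3. Among the 13802 genes the Spp1 fold change ranked 286th from the highest at day 0, 175th at day 1 and 99th at day 3, while the median gene was at 0.01 on each day. The day 3 log2 fold change minus that of day 0 was 0.65 ± 0.18, day 1 minus day 0 was 0.25 ± 0.18, and day 3 minus day 1 was 0.40 ± 0.19. These differences come from the comparisons that chose the gene and carry no test, and the day 3 value varied with single libraries: it was 2.03 without siChst7 replicate 2, 1.67 without replicate 1 and 1.63 without replicate 3.

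**Figure D2:**
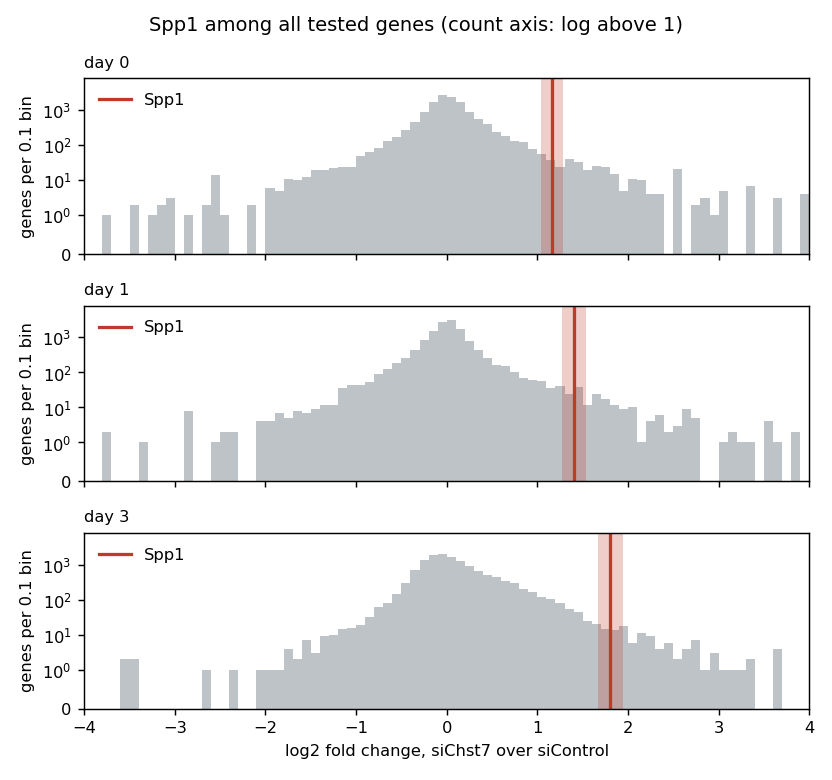
Distribution of the log2 fold change of siChst7 over siControl across the 13802 tested genes at days 0, 1 and 3 (bars, genes per bin, log count axis above 1), with Spp1 as a red line and its SE as a band. Spp1 stood at 1.16, 1.40 and 1.81, in the right tail on each day, where it ranked 286th, 175th and 99th from the highest.

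Genes called at an adjusted p below 0.05 made up 27.4% of those tested at day 0, 17.6% at day 1 and 44.7% at day 3 between siChst7 and siControl. A call in the higher direction at all 3 days was made for 168 genes, 1.22% of those tested, and 357 genes were called lower at all 3 days. Of the 168, 5 had a log2 fold change of at least 1 at every day. Spp1 was chosen on these values, so its place among the 168 is a description: by the smallest of the 3 log2 fold changes it came first, at 1.16, and by mean CPM in place 3. Next came Cck, the gut and brain peptide cholecystokinin, at 1.14 and a mean of 1.75 CPM, then Lce1f, a late cornified envelope gene, at 1.10 and 0.496 CPM. The Lce1 genes are near-identical copies, so the Lce1f count is uncertain. Cck lost its call without siChst7 replicate 2 or siControl replicate 1 or 3 at day 1, and without siChst7 replicate 3 at day 3 (adjusted p 0.0976 to 0.112 by edgeR). Lce1f lost its day 0 call without any 1 of the 3 siChst7 libraries of that day, or without siControl replicate 1 or 2 (adjusted p 0.058 to 0.142, edgeR).

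At day 3 the log2 fold change of siChst7 over siControl was related to gene length across the tested genes (Spearman rho -0.33, across genes, which are not independent replicates), against 0.05 at day 0 and -0.07 at day 1. The Spp1 length in the deposited table is 1658 bases, shorter than the median tested gene (2881.5 bases); 21.6% of tested genes were shorter. With a length trend removed from each library, an alternative chosen after seeing the data, the day 3 value was 1.68, the day 0 value 1.16 and the day 1 value 1.40.

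The largest change of Spp1 in these comparisons was its fall after day 0, between cells without and with doxycycline. In siChst7 cells the group mean was 1293 CPM at day 0, 138 CPM at day 1 and 96.6 CPM at day 3. Spp1 fell 9.39-fold at day 1 against day 0 (log2 fold change -3.23 ± 0.13, adjusted p = 1.76e-15, edgeR's quasi-likelihood test) and 13.4-fold at day 3 against day 0 (-3.75 ± 0.14, adjusted p = 1.42e-16, edgeR). At day 3 against day 1 it fell 1.43-fold (-0.52 ± 0.13, adjusted p = 0.00112, edgeR). The last value depended on replicate 2 of day 3, the lowest siChst7 library: without it the log2 fold change was -0.29 (adjusted p = 1.54e-05, edgeR). Calls were common: the shares of all tested genes called in these comparisons were 60.0%, 75.7% and 65.2%. In bulk RNA, fewer cells that express Spp1 and less Spp1 RNA per cell cannot be told apart.

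Spp1 also fell over the days in siControl cells, at a lower level. There the group mean was 580 CPM at day 0, 52.1 CPM at day 1 and 27.6 CPM at day 3. Spp1 fell 11.1-fold at day 1 against day 0 (log2 fold change -3.48 ± 0.14, adjusted p = 9.07e-16, edgeR). At day 3 against day 0 it fell 21.0-fold (-4.40 ± 0.14, adjusted p = 2.06e-17, edgeR). At day 3 against day 1 it fell 1.89-fold (-0.92 ± 0.14, adjusted p = 6.01e-06, edgeR). Every later library lay below every earlier one in each of these comparisons. In these 3 comparisons 60.3%, 73.4% and 55.2% of tested genes were called. The falls of Spp1 from day 0 ranked 88th and 80th from the lowest of 13802 genes, at days 1 and 3.

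Osteopontin's relatives were nearly silent, and Spp1 was the only member of its gene cluster with more than 10 counts over the 18 libraries. Spp1 belongs to the small integrin-binding ligand, N-linked glycoproteins, acidic matrix proteins of bone and teeth whose genes lie side by side on chromosome 5. Over the 18 libraries Dspp (dentin sialophosphoprotein) had 0 counts, Dmp1 (dentin matrix protein) 10, Ibsp (bone sialoprotein) 2 and Mepe (a phosphoglycoprotein of bone matrix) 8, against 291298 for Spp1. None of these 4 passed the filter. On the other side lies Pkd2, which encodes the ion channel polycystin-2 and starts 12929 bases after the end of Spp1. Pkd2 was called at day 0 with a log2 fold change of 0.13 ± 0.04 for siChst7 over siControl (adjusted p = 0.0101, edgeR), a call lost without siControl replicate 3 (adjusted p = 0.063), and was not called at day 1 (-0.10 ± 0.04) or day 3 (0.09 ± 0.04).

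Of 10 genes for osteopontin's receptors 9 passed the filter. With siChst7, 1 was called higher and 4 lower at day 0, 2 higher and 1 lower at day 1, and 0 higher and 2 lower at day 3, where the shares of all genes called were 27.4%, 17.6% and 44.7%. The median log2 fold change of the 9 was -0.15, 0.04 and -0.07 at days 0, 1 and 3, beside 0.01 over all genes on each day. In TPM the highest receptor gene was Itgb1, the β1 chain shared by many integrins, at 963 to 1390 in siChst7 groups and 1021 to 1687 in siControl groups (group means). It was called lower at day 0 (-0.15 ± 0.04, adjusted p = 0.0036, edgeR), higher at day 1 (0.15 ± 0.04, adjusted p = 0.005) and not called at day 3 (-0.07 ± 0.04); with library totals as the scaling the day 0 call was lost (-0.09, adjusted p = 0.132). Itgav, the αV chain that pairs with β1, β3, β5 or β6 to bind RGD, was called on no day (-0.11 ± 0.04, 0.03 ± 0.04 and 0.09 ± 0.04).

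Cd44, the hyaluronan receptor that also binds osteopontin, had 322 to 353 CPM in siChst7 cells at day 0, against 381 to 391 CPM in siControl cells. The groups were apart, and the log2 fold change was -0.19 ± 0.04 (adjusted p = 0.00063, edgeR); days 1 and 3 were not called (-0.04 ± 0.04 and -0.07 ± 0.04). Itga5, the fibronectin receptor's α5 chain, fell at day 0 (-0.24 ± 0.05), rose at day 1 (0.18 ± 0.05) and fell at day 3 (-0.18 ± 0.05); the day 1 call was lost without siChst7 replicate 2 or siControl replicate 3 of that day (adjusted p 0.0559 and 0.0502, edgeR). Itgb5 rose at day 0 (0.17 ± 0.05) and fell at day 3 (-0.25 ± 0.05), and its day 0 call was lost without siChst7 replicate 3 or siControl replicate 2 or 3 (adjusted p 0.0514 to 0.0728, edgeR). Itga8, the α8 chain, was lower at day 0 (-0.60 ± 0.16) and day 1 (-0.50 ± 0.11) and not called at day 3 (0.19 ± 0.09). Its level rose with induction, to 35.0 to 36.0 CPM in siChst7 at day 3 against 1.24 to 1.76 CPM at day 0. In siControl the Itga8 mean likewise rose, from 2.22 CPM at day 0 to 31.0 CPM at day 3. The β3 chain Itgb3, the β6 chain Itgb6 and the α4 and α9 chains Itga4 and Itga9 were at or below 0.649 TPM in every group mean, and Itgb6 did not pass the filter.

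Of 10 genes for enzymes that modify or cut osteopontin, 6 passed the filter. With siChst7, 2 were called higher and 2 lower at day 0, 1 higher at day 1, and 1 higher and 1 lower at day 3, beside 27.4%, 17.6% and 44.7% of all genes called in either direction. The median log2 fold change of the 6 was 0.45, 0.48 and 0.60 at days 0, 1 and 3, beside 0.01 over all genes. Among the 6 are Mmp9 and Phex, which have few counts and were called on no day. Mmp3, stromelysin 1, a matrix metalloproteinase that cuts osteopontin, had 904, 898 and 867 CPM in siChst7 libraries at day 0, against 527, 522 and 534 CPM in siControl libraries. At day 1 it had 43.1, 44.8 and 38.3 CPM with siChst7, against 22.0, 19.0 and 18.6 CPM with siControl. At day 3 it had 0.842, 0.832 and 1.45 CPM with siChst7, against 0.536, 0.572 and 0.666 CPM with siControl. Mmp3 was thus higher with siChst7 on each day, with no overlap, and fell over the days to near 1 CPM in both. Its log2 fold changes were 0.75 ± 0.06 (adjusted p = 3.6e-09, edgeR), 1.08 ± 0.07 (5.78e-10) and 0.76 ± 0.23 (0.00933), the last lost without siChst7 replicate 3 (0.44, adjusted p = 0.144) and in a fit of the compared libraries alone (0.79, adjusted p = 0.0772).

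Tgm2, the transglutaminase that cross-links osteopontin, fell at day 0 (-1.03 ± 0.07, adjusted p = 2.55e-10, edgeR) and was not called at day 1 (-0.17 ± 0.07) or day 3 (0.04 ± 0.07). Plau, the urokinase gene, fell at day 0 (-0.84 ± 0.23, adjusted p = 0.0082, edgeR). Fam20c, the secretory-pathway kinase that phosphorylates osteopontin, rose at day 0 (0.19 ± 0.05) and fell at day 3 (-0.37 ± 0.06, adjusted p = 1.75e-05, edgeR); its day 0 call was lost without siChst7 replicate 3 or siControl replicate 3 (adjusted p 0.0621 and 0.0507). Mmp7, Mmp12, the thrombin gene F2 and the phosphatase gene Acp5 had 2, 25, 19 and 36 counts over the 18 libraries and did not pass the filter. Mmp9 had 142 counts and Phex, an endopeptidase that cuts osteopontin's mineral-binding motif, 351, and neither was called on any day.

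**Figure D3:**
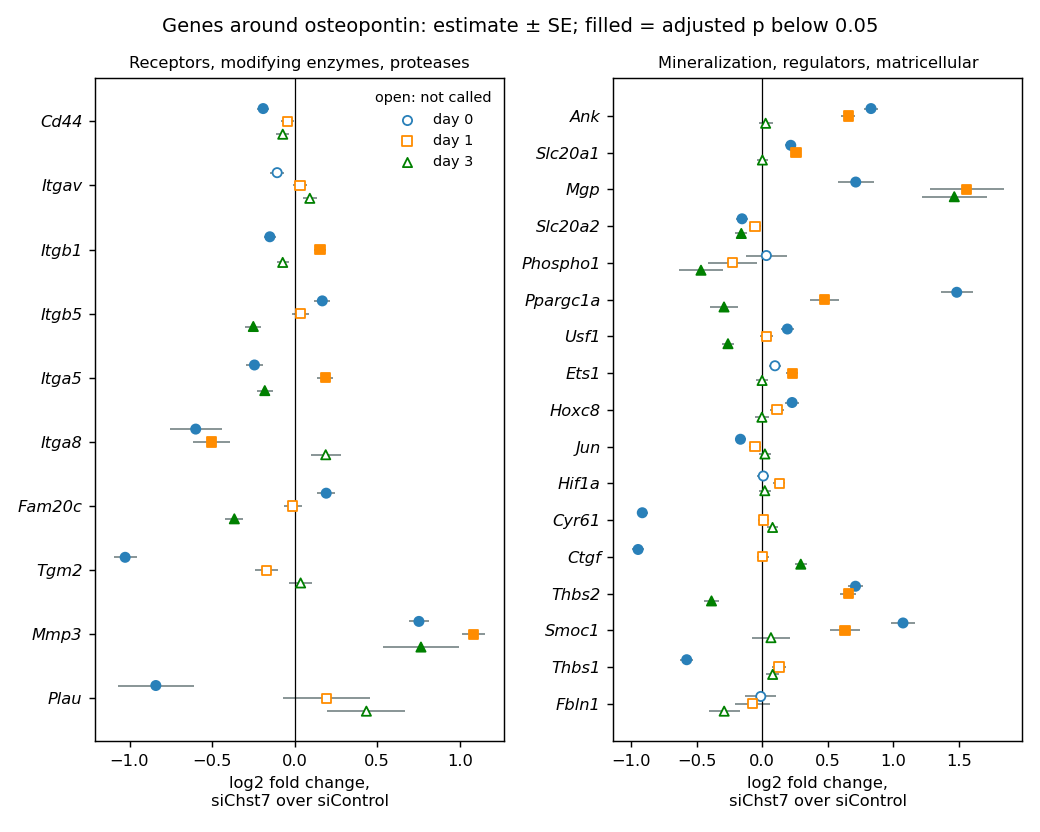
Log2 fold change ± SE of siChst7 over siControl at days 0 (circles), 1 (squares) and 3 (triangles) for genes of osteopontin's receptors, modifying enzymes and proteases (left) and of mineralization, reported Spp1 regulators and matricellular proteins (right) that average at least 1 CPM. Filled symbols were called at an adjusted p below 0.05; Mmp3 and Mgp were called higher on each day, while Itgb5, Fam20c and Usf1 changed sign between days 0 and 3.

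Among mineral and phosphate genes, Mgp was higher with siChst7 on each day and at its highest at day 0. Of 8 genes on this list 5 passed the filter: 3 were called higher and 1 lower at day 0, 3 higher at day 1, and 1 higher and 2 lower at day 3. The shares of all genes called on those days were 27.4%, 17.6% and 44.7%. Mgp, matrix Gla protein, an inhibitor of calcification, had 26.7, 29.2 and 24.2 CPM with siChst7 at day 0, against 15.7, 16.1 and 17.1 CPM with siControl. At day 1 it had 1.61, 2.00 and 2.20 CPM with siChst7, against 0.843, 0.689 and 0.436 CPM with siControl. At day 3 it had 3.40, 1.60 and 2.25 CPM with siChst7, against 1.02, 0.975 and 0.597 CPM with siControl. The groups did not overlap on any day, and the log2 fold changes were 0.71 ± 0.14, 1.56 ± 0.28 and 1.47 ± 0.25 (adjusted p = 0.000387, 0.000427 and 6.69e-05, edgeR). Ank, the membrane protein that raises extracellular pyrophosphate, rose at day 0 (0.83 ± 0.05) and day 1 (0.66 ± 0.05) and was not called at day 3 (0.03 ± 0.05). Slc20a1, a sodium-phosphate cotransporter, rose at day 0 (0.22 ± 0.04) and day 1 (0.26 ± 0.04), and stood at 0.00 ± 0.04 at day 3.

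Of 13 genes for factors reported to act on Spp1 transcription, 3 were called higher and 1 lower with siChst7 at day 0, 4 higher at day 1, and 2 lower at day 3, where 27.4%, 17.6% and 44.7% of all genes were called. Their median log2 fold changes were 0.17, 0.11 and -0.00, beside 0.01 over all genes on each day. The largest value among those named was that of Ppargc1a, the coactivator PGC-1α, which had 12.3, 11.7 and 13.0 CPM with siChst7 at day 0, against 3.99, 4.71 and 4.50 CPM with siControl. Its log2 fold change was 1.49 ± 0.12 at day 0 (adjusted p = 5.06e-09, edgeR), 0.48 ± 0.11 at day 1 and -0.29 ± 0.11 at day 3 (adjusted p = 0.0349), the last lost without siChst7 replicate 1 or 2 or siControl replicate 1 or 3 (adjusted p 0.0516 to 0.177), with the compared libraries alone (adjusted p = 0.132) and with the length trend removed (adjusted p = 0.0662). Ets1 (an ETS factor) rose at day 1 (0.23 ± 0.05), Hoxc8 (a homeobox factor) at day 0 (0.23 ± 0.05), and Usf1 (an E-box factor) rose at day 0 (0.19 ± 0.05) and fell at day 3 (-0.26 ± 0.05). Jun, an AP-1 subunit, fell at day 0 (-0.17 ± 0.04), a call lost with library totals as the scaling (-0.11, adjusted p = 0.107). Hif1a, the most abundant member with no call, stood at 0.01 ± 0.05, 0.13 ± 0.05 and 0.02 ± 0.05. Runx2, the RUNX factor of bone, stood at 0.17 ± 0.07 (not called), 0.22 ± 0.07 (adjusted p = 0.037, edgeR) and 0.03 ± 0.07 (not called). Its day 1 call was lost with library totals as the scaling (adjusted p = 0.0538, edgeR), and without any 1 of the 3 siChst7 libraries of that day or siControl replicate 1 or 2 (adjusted p 0.0594 to 0.124).

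Over the days of induction most of these regulators changed, as did most genes. At day 3 against day 0, 2 of the 13 rose and 9 fell in siChst7, where 75.7% of all tested genes were called, and 5 rose and 8 fell in siControl, where 73.4% were called. Jun fell by 1.64 on the log2 scale (SE 0.04) in siChst7 and by 1.82 (SE 0.04) in siControl between these days. Ets1 fell by 0.87 (SE 0.04) in siChst7 and by 0.78 (SE 0.04) in siControl.

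Other matricellular genes, whose secreted products act on cells rather than build the matrix, did not share one direction. Of 16 besides Spp1, 6 were called higher and 5 lower with siChst7 at day 0, 7 higher and 1 lower at day 1, and 3 higher and 5 lower at day 3, beside 27.4%, 17.6% and 44.7% of all genes called. Cyr61 and Ctgf, paired growth-regulating CCN proteins, fell at day 0: Ctgf had 2163, 2207 and 2457 CPM with siChst7, against 4380, 4353 and 4441 CPM with siControl. Their log2 fold changes were -0.92 ± 0.04 and -0.95 ± 0.05 at day 0, 0.01 ± 0.04 and 0.00 ± 0.05 at day 1 (neither called), and 0.08 ± 0.04 (not called) and 0.29 ± 0.05 at day 3. Thbs1, thrombospondin 1, fell at day 0 (-0.58 ± 0.05) and was not called afterwards. Thbs2, thrombospondin 2, rose at day 0 (0.71 ± 0.06) and day 1 (0.66 ± 0.06) and fell at day 3 (-0.39 ± 0.06). Smoc1, a SPARC-related calcium-binding protein, rose at day 0 (1.07 ± 0.09) and day 1 (0.63 ± 0.11) and was not called at day 3 (0.07 ± 0.15).

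Cell types known for Spp1 were looked at through their markers. Of 14 macrophage markers 7 passed the filter, and their summed level was 62.5 to 66.6 CPM in siChst7 libraries at day 0, against 49.2 to 54.4 CPM in siControl libraries. It was 24.3 to 25.7 CPM with siChst7 at day 1, against 18.9 to 21.5 CPM with siControl, and 26.5 to 30.5 CPM with siChst7 at day 3, against 28.2 to 30.1 CPM with siControl. Of the 7, 1 was called higher at day 0, 3 higher at day 1 and 0 at day 3, and 0 lower on each day by edgeR. Of all tested genes, 27.4%, 17.6% and 44.7% were called on those days, in either direction. Over the other settings the higher counts were 1 to 2, 1 to 3 and 0 to 1, and 1 was lower at day 3 with the length trend removed. The 7 that did not pass the filter were C1qb and C1qc with 0 counts over all 18 libraries, Adgre1 with 1, Tyrobp with 1, Cd163 with 2, C1qa with 4 and Ptprc with 23, beside the 291298 counts of Spp1. Of those that passed, Cd14 had 14774 counts, Cd68 7826, Lyz2 3356, Csf1r 1049, Itgam 245, Fcer1g 175 and Mrc1 82. Cd14 was higher at day 0 (0.56 ± 0.08) and day 1 (0.37 ± 0.09), the day 1 call being lost without siControl replicate 1 (adjusted p = 0.0612, edgeR). Cd68 was called at day 1 alone (0.33 ± 0.11), a call lost without any 1 of the 3 siChst7 libraries or siControl replicate 2 or 3 (adjusted p 0.0777 to 0.157, edgeR) and with the compared libraries alone (adjusted p = 0.0564). Lyz2 was called on no day. Of 8 osteoblast markers 3 passed the filter, summing to 42.3 to 51.4 CPM with siChst7 at day 0, against 39.7 to 44.3 CPM with siControl. They summed to 34.2 to 36.4 CPM with siChst7 at day 1, against 29.2 to 31.8 CPM with siControl, and to 24.8 to 25.3 CPM with siChst7 at day 3, against 21.8 to 25.2 CPM with siControl. Runx2 made up most of the sum, at 32.3 CPM over the 18 libraries, beside 0.711 CPM for Bglap2 and 0.482 CPM for Phex. Bglap2, an osteocalcin gene with a near-identical copy in Bglap, was not called at day 0 (0.38 ± 0.32), was lower at day 1 (-1.20 ± 0.42) and higher at day 3 (1.00 ± 0.30). Each of its calls was lost without some single libraries (adjusted p 0.0513 to 0.263, edgeR), the day 1 call also with no filter on low counts (adjusted p = 0.0558) and the day 3 call with the length trend removed (0.42, adjusted p = 0.269). Ibsp had 2 counts, Dmp1 10, Sp7 11, Bglap 49 and Alpl 57 over the 18 libraries.

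Endothelial, epithelial and adipocyte markers were summed in the same way. The 5 endothelial markers, of which 2 passed the filter, summed to 3.42 to 4.07 CPM with siChst7 at day 0, against 2.10 to 2.54 CPM with siControl. They summed to 0.814 to 0.897 CPM with siChst7 at day 1, against 0.241 to 0.460 CPM with siControl, and to 0.612 to 0.987 CPM with siChst7 at day 3, against 0.339 to 0.620 CPM with siControl. Cdh5, VE-cadherin, averaged 3.14, 0.167 and 0.0687 CPM in siChst7 at days 0, 1 and 3, and 1.87, 0 and 0.00765 CPM in siControl. It was called higher on each day, with the day 0 and day 3 calls lost without some single libraries (adjusted p 0.0505 to 0.164, edgeR), and the day 3 call also with library totals (adjusted p = 0.0504) or no filter on low counts (adjusted p = 0.0591). The 6 epithelial markers, of which 2 passed the filter, summed to 0.249 to 0.302 CPM with siChst7 at day 0, against 0.223 to 0.354 CPM with siControl. They summed to 1.90 to 2.72 CPM with siChst7 at day 1, against 0.689 to 0.901 CPM with siControl, and to 0.742 to 1.45 CPM with siChst7 at day 3, against 0.395 to 0.784 CPM with siControl. The 5 adipocyte markers summed to 23.1 to 26.7 CPM with siChst7 at day 0, against 16.3 to 18.3 CPM with siControl. They summed to 2.80 to 3.45 CPM with siChst7 at day 1, against 2.23 to 2.79 CPM with siControl, and to 0.990 to 2.15 CPM with siChst7 at day 3, against 0.505 to 0.869 CPM with siControl. Of the 5, Fabp4, a fatty-acid-binding protein gene, alone passed the filter, with log2 fold changes of 0.53 ± 0.12 (adjusted p = 0.00264, edgeR), 0.34 ± 0.18 (not called) and 1.14 ± 0.27 (adjusted p = 0.00141). The adipocyte and endothelial sums thus averaged higher with siChst7 on each day, as Spp1 did, but this was not particular to them. Cardiomyocyte, osteoblast, epithelial and chondrocyte sums also averaged higher on each day, the chondrocyte sum by little at day 3 (6.87 against 6.83 CPM). The fibroblast sum averaged lower on each day, and the macrophage and smooth muscle sums changed direction between days. The endothelial ranges overlapped at day 3, and these sums were at most 0.987 CPM at days 1 and 3. The adipocyte ranges nearly met at day 1, at 2.80 CPM with siChst7 and 2.79 CPM with siControl.

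Of 6 chondrocyte markers 5 passed the filter. They summed to 21.5 to 26.8 CPM in siChst7 libraries at day 0, against 10.4 to 12.7 CPM in siControl libraries, to 3.98 to 5.10 CPM with siChst7 at day 1, against 3.43 to 4.45 CPM with siControl, and to 6.62 to 7.04 CPM with siChst7 at day 3, against 6.63 to 7.12 CPM with siControl. The transcription factor Sox9 accounted for most of the day 0 sum (log2 fold change 1.04 ± 0.11, adjusted p = 3.23e-07, edgeR). The smooth muscle markers, all 7 of which passed the filter, summed to 621 to 676 CPM with siChst7 at day 0, against 1576 to 1725 CPM with siControl, the opposite direction to Spp1. At day 1 they summed to 1736 to 1829 CPM with siChst7, against 2230 to 2334 CPM with siControl, also lower. At day 3 they summed to 3430 to 4201 CPM with siChst7, against 3077 to 3196 CPM with siControl. The part of these marker changes, of the Rn45s share and of gene length in the Spp1 values was not tested further.

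The genes whose pattern over the 18 libraries was most like that of Spp1 were Cntnap1, Nr1d2, Fgf7, Steap1, Fmr1 and Col6a3. Likeness was Pearson's r of log2(CPM + 1) among 9933 genes with a mean of at least 5 CPM, and the 6 had r of 0.990, 0.984, 0.983, 0.983, 0.980 and 0.979. This is a description: the libraries fall into 6 groups, share their day and siRNA effects, and 406 genes reached an r of 0.9. All 6 were highest in siChst7 at day 0. Cntnap1 encodes a contactin-associated membrane protein, Nr1d2 the circadian nuclear receptor Rev-erbβ, Fgf7 keratinocyte growth factor, Steap1 a six-transmembrane protein, Fmr1 an RNA-binding translation regulator and Col6a3 a collagen VI chain.

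Their changes were smaller than those of Spp1, and since likeness over the same libraries chose these genes, their calls are given as a description. Steap1 had the closest range: 82.2 ± 9.66 CPM with siChst7 and 71.5 ± 1.62 CPM with siControl at day 0, 26.6 ± 1.35 CPM with siChst7 and 17.8 ± 1.01 CPM with siControl at day 1, and 21.2 ± 1.30 CPM with siChst7 and 9.46 ± 1.21 CPM with siControl at day 3 (SD, n = 3). Its log2 fold change was 0.20 ± 0.08 at day 0 (adjusted p = 0.0527, edgeR), 0.58 ± 0.09 at day 1 and 1.16 ± 0.09 at day 3. Fgf7 had the same order of values, at 0.13 ± 0.07 (not called), 0.33 ± 0.07 and 0.82 ± 0.07. Col6a3 stood at 0.75 ± 0.07, 0.76 ± 0.09 and 0.35 ± 0.09, all called. Cntnap1 (0.24 ± 0.06, 0.41 ± 0.07 and 0.59 ± 0.07), Nr1d2 (0.23 ± 0.04, 0.26 ± 0.04 and 0.18 ± 0.04) and Fmr1 (0.22 ± 0.04, 0.16 ± 0.04 and 0.16 ± 0.04) were called on each day. The Cntnap1 call at day 0 was lost without siControl replicate 3 (adjusted p = 0.0689, edgeR), and the Fmr1 call at day 1 without siChst7 replicate 2 (adjusted p = 0.0779, edgeR).

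**Figure D4:**
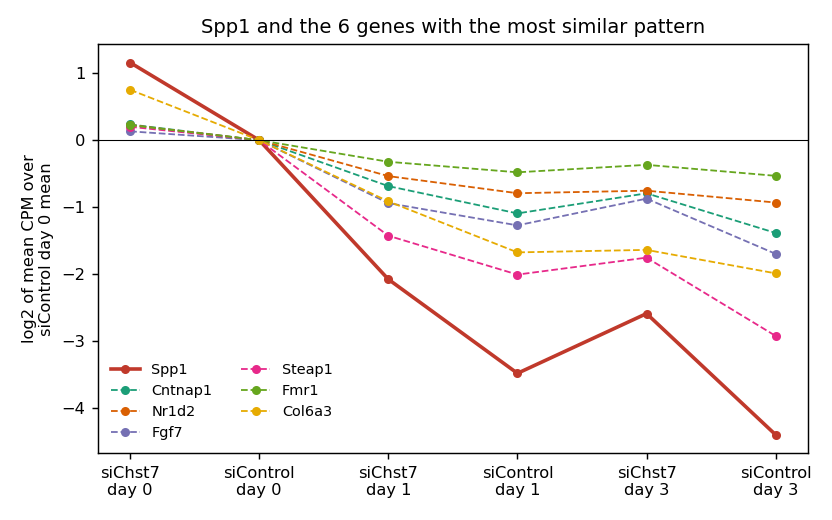
Group mean CPM of Spp1 and of the 6 genes most like it, as log2 over the siControl mean of day 0, with siChst7 left of siControl at each day. Every line falls after day 0 and lies higher in siChst7 than in siControl of the same day; Spp1 (thick line) spans the widest range, its highest group mean being 46.9 times its lowest.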

How the data were processed

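The deposited table holds counts per gene for 18 libraries with a gene length column; per the submitters' processing notes, HISAT2, featureCounts of Subread and DESeq2 were used with mm10. For their versions, the strand setting and multiply mapped reads: not given in the sources used here. Libraries were made with a poly-A kit, per the labels' protocols. The deposited counts were tested with edgeR 4.0.16 (R 4.3.3): TMM scaling, filterByExpr, quasi-likelihood fit of all 6 groups with 12 residual degrees of freedom, and Benjamini-Hochberg adjustment over 13802 genes; a gene was called at an adjusted p below 0.05. SE is the log2 fold change divided by the square root of F. The edgeR step was tested on simulated counts with the same spread in every group, without the wider spread of siChst7 at day 3. The planted changes were larger than many called here, so the simulation does not cover small changes. DESeq2 1.42.0, other scalings, other filters, a replicate block, the compared libraries alone and leaving out each library were alternatives. Replicates are separate samples per the labels, so p-values measure the spread between pools of wells. The gene, the gene lists and the tests were chosen with earlier results of these data known. Named genes were Chst7, all receptor, modification and gene-family members, up to 5 genes with the smallest p and the most abundant uncalled gene of each further list, the 3 most abundant markers of each cell type, the 6 genes most like Spp1, its neighbours, and the genes ranked beside it among those higher on all days; a neighbour on the far side of Pkd2 is left out because its table symbol was ambiguous. Other markers were singled out for their low counts after these were seen. Promoters came from RefSeq (GRCm38.p6) and the coding sequence from GENCODE (GRCm38).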

Additional observations from a re-analysis of the deposited data

Results flagged for a closer look

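Named genes with a mean of at least 5 CPM were searched for opposite directions between days. For 14 of them every siChst7 library lay above every siControl library on one day and below every one on another. The share of all tested genes that do so was not counted, so whether 14 is many cannot be judged. The change of direction between days was not tested. The log2 fold changes of siChst7 over siControl on the days without overlap were as follows. Among receptor genes, Itgav stood at -0.11 at day 0 and 0.0918 at day 3, neither called. Itgb1 stood at -0.15, 0.15 and -0.0723 at days 0, 1 and 3 (not called at day 3), and Itga5 at -0.24, 0.18 and -0.18. Itgb5 stood at 0.17 at day 0 and -0.25 at day 3. Itga8 stood at -0.60, -0.50 and 0.19 at days 0, 1 and 3 (not called at day 3). The kinase gene Fam20c stood at 0.19 at day 0 and -0.37 at day 3, and the regulator Usf1 at 0.19 and -0.26. Among matricellular genes, Ctgf stood at -0.95 at day 0 and 0.29 at day 3. Thbs1 stood at -0.58 at day 0 and 0.13 at day 1 (not called at day 1). Thbs2 stood at 0.71, 0.66 and -0.39 at days 0, 1 and 3. Among markers, the smooth muscle genes Acta2 and Tagln stood at -1.47 and -1.29 at day 0 and at 0.20 and 0.91 at day 3, with Acta2 at -0.41 at day 1. The Acta2 call at day 3 was lost without siChst7 replicate 3 (0.06, adjusted p = 0.408, edgeR). It was also lost with the compared libraries alone (adjusted p = 0.0768, edgeR). The atrial myosin light chain gene Myl7 stood at -0.47 at day 1 (not called) and 0.97 at day 3. The neighbour Pkd2 stood at 0.13, -0.10 and 0.0857 at days 0, 1 and 3 (not called at days 1 and 3). Spp1 was left out of this search, since it was chosen for being higher with siChst7 on all 3 days. Groups of 3 libraries are too small for an outlier test.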

How the results depend on the processing

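The 9 Spp1 log2 fold changes kept their sign under all 9 other settings and with each of the 18 libraries left out, and the 6 between days stayed called (largest adjusted p = 0.0165, with the compared libraries alone, day 3 against day 1 in siChst7). Leaving out 1 library gave 1.12 to 1.22 at day 0, 1.34 to 1.46 at day 1 and 1.63 to 2.03 at day 3 for siChst7 over siControl; the other settings gave 1.16 to 1.22, 1.40 to 1.42 and 1.68 to 1.81. Same-numbered replicates showed little shared deviation from their group means (correlation -0.02 to 0.06, over 0.1 in 0 of 9 pairs). This cannot show whether they were handled together. With the replicate block the 3 values were 1.16, 1.41 and 1.79, and no Spp1 call changed. Numbers of genes called moved by over 1.5 times in 5 cases. With library totals, 1217 genes, not 1869, were called lower with siChst7 at day 0, and at day 3 against day 1 in siControl 4833 were called higher and 2599 lower, not 3150 and 4462. With the compared libraries alone, 1979 and 1945 genes were called higher and lower with siChst7 at day 1, not 1223 and 1203. Counts of called list members are small: 309 moved by over 1.5 times or to or from 0, and 4011 did not. Spp1 regulators called higher with siChst7 ran from 3 to 6 at day 0 and from 2 to 5 at day 1. Receptors called lower at day 3 ran from 2 to 4. The share of calls that were higher moved by over 10 points with library totals for siChst7 at day 0 (69.4%, not 50.6%), day 3 against day 0 in siControl (57.8%, not 46.2%) and day 3 against day 1 in siControl (65.0%, not 41.4%; 57.3% with upper quartile scaling) and in siChst7 (60.9%, not 48.6%, where the median of all genes moved to 0.12 from 0.01). Between days, Cd44 turned to 0.0464 at day 3 against day 0 and Nr1d2 to 0.0081 at day 3 against day 1, both in siControl with library totals and no longer called (adjusted p = 0.318 and 0.891). The length trend was added after seeing the data. The causes of these shifts were not tested. Genes with a few counts, such as the other family members, are at the limit of this depth: a count of 0 allows up to 3.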
